A study of Mus musculus with 3 samples.

Results

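The genes described here encode the proteasome. They were taken as the non-control probes whose gene name on the array starts with Psm, a letter from a to g and a digit, and whose signal was well above background in Cy5 and Cy3 alike. Of 41174 probes on the array 69 carried such a name, for 44 of 27389 genes. On all 3 arrays 63 of the 69 probes were well above background in both channels, 1 further probe (of Psmc2) was so on the 24 h array alone, and 5 were so on no array. One gene of the 44, Psmc3ip, shares the letters but encodes a factor of meiotic recombination and no proteasome subunit, and it is counted apart. Of the 43 proteasome genes 42 were measured on all 3 arrays, and Psmd13 was measured at 6 and 12 h only. No gene name starting with Psmg, the family of assembly chaperones of the core, was among them.

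The cells were MigA9, a mouse hematopoietic line that Hoxa9, a homeobox transcription factor, had transformed and that was grown in medium conditioned with GM-CSF, so treated and untreated cells alike carry the Hoxa9 transformation and receive the cytokine. Cells kept for 6, 12 or 24 h with 2.5 µM DB818, which binds in the minor groove of DNA, were set against untreated cells on 1 two-colour array per time, with the treated RNA in Cy5 and the untreated RNA in Cy3. The labels do not say whether the line is a single clone or whether the untreated RNA was 1 preparation. Each value below is a log2 ratio of treated over untreated cells unless a signal or a fold is named, after background correction and loess normalisation within the array. No time was repeated and the dyes were never swapped, so a ratio at a single time has no replicate and no test. The test concerned a gene's mean over the 3 times: limma compared it with 0 for 10957 genes and adjusted the p-values over all of them, so there the times stand in for replicates. A dye bias that is the same on every array would add to such a mean.

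The proteasome degrades proteins that carry ubiquitin chains. Its 20S core is a barrel of alpha rings (Psma) around beta rings (Psmb), and Psmb5, Psmb6 and Psmb7 hold the chymotrypsin-like, caspase-like and trypsin-like active sites. In cells of the immune system, and after interferon, Psmb8, Psmb9 and Psmb10 take the places of Psmb5, Psmb6 and Psmb7 and form the immunoproteasome, whose products suit MHC class I. The 19S particle caps the barrel: its ATPases (Psmc) unfold the substrate, and some of its other subunits (Psmd) bind ubiquitin or remove it. The activators Psme1 and Psme2 (together PA28), Psme3 and Psme4 can cap the core in place of the 19S particle. When proteasomes are inhibited, the transcription factor Nfe2l1 raises the subunit genes together through antioxidant response elements.

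Promoters of 4 genes are shown because the results below turn on them: Psma7 and Psmb5, which were lower in treated cells, and Psmb9 and Psme1, which had the highest ratios at 24 h. Each runs 5′ to 3′ from 250 bases before to 50 bases after the start of transcription, from RefSeq on GRCm38.p6: Psma7 at chr2:180042415-180042714, minus strand, Psmb5 at chr14:54617946-54618245, minus strand, Psmb9 at chr17:34187281-34187580, minus strand and Psme1 at chr14:55578244-55578543, plus strand. Capitals mark CCAAT in Psma7, TGACNNNGC in Psmb5, CCAAT read on the other strand in Psmb9, and in Psme1 the other strand of an interferon element, here a pair of GAAA with 2 bases between.
Psma7: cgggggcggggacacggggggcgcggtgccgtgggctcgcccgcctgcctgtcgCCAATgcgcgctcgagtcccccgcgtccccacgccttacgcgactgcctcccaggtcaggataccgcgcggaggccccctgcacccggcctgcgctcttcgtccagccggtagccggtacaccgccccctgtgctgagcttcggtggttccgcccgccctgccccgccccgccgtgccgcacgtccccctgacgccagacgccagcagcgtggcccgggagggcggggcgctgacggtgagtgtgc
Psmb5: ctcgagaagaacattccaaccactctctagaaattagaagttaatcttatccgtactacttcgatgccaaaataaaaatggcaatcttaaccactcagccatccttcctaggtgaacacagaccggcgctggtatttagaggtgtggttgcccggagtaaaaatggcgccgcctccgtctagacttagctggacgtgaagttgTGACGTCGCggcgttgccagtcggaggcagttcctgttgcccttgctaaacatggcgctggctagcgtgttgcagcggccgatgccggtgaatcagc
Psmb9: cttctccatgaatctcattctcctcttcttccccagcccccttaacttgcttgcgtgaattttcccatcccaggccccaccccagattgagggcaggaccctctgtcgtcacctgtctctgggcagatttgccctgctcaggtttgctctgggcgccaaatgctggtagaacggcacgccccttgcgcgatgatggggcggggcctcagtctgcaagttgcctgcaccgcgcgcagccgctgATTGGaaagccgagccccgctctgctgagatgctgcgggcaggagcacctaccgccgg
Psme1: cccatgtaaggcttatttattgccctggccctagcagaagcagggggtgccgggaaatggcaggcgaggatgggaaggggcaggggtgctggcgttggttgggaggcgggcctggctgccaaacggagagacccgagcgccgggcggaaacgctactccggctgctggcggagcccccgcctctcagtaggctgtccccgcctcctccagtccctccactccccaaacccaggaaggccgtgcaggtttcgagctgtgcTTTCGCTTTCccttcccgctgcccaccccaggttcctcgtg

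The motifs searched, on both strands and each counted on its own where it overlapped another, were TGACNNNGC (the core of an antioxidant response element), CCAAT, the interferon element just described and TGATTTA (a Hox and Pbx type of site). A promoter was at hand for 36 of the 43 genes, 7 of them among the genes that fell and 2 among those that rose. TGACNNNGC was found for 6 of the 36 genes (16.7%, against 17.2% of 7948 tested genes with a promoter), or 15.8% of their 38 promoters against 12.4% of 32851 promoters of the same length. They were Psmb5, Psmb6, Psmc6, Psmd9, Psmd12 and Psme4. Of these only Psmb5 was called. CCAAT was found for 13 genes (36.1%, against 43.5% of tested genes), or 34.2% of their promoters against 37.4% of all. TGATTTA was found for 1, Psmc2, and in 2.6% of the promoters against 3.0% of all. The interferon element was found for 4 (11.1%, against 3.7% of tested genes), or 10.5% of the promoters against 3.4% of all, namely Psmb3, Psmd4, Psmd9 and Psme1. A match describes these letters and is no evidence that a factor binds there.

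Transcripts of the proteasome differed little between treated and untreated cells. None of the 42 genes reached a log2 ratio of 0.32 in either direction at 6, 12 or 24 h. Among all genes, 1.87, 1.42 and 2.79% lay that high or higher and 0.684, 0.675 and 1.41% as far below 0 at these times. The median of the 42 ratios was -0.015, -0.006 and -0.031 at 6, 12 and 24 h, beside 0.029, 0.027 and 0.030 for all 10957 genes. Over the 3 times 9 proteasome genes fell and 3 rose with loess. These are 21.4% and 7.14% of the 42, against 7.86% of all genes that fell and 20% that rose, or 27.9% in either direction. With median centring in place of loess 3 fell and 32 rose, where 40.9% of all genes fell and 37.9% rose. Ratios were below 0 on all 3 arrays for 16 of the 42 (38.1%, against 21.0% of all genes) and above 0 on all 3 for 10 (23.8%, against 41.1% of all genes). The genes that fell were Psmb7, Psma7, Psmd2, Psmc1, Psma5, Psmb3, Psmd3, Psmb5 and Psmb4, and those that rose were Psma4, Psma3 and Psmb1. RNA of whole cultures was measured, so less RNA per cell and fewer cells of a kind cannot be told apart.

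**Figure D1:**
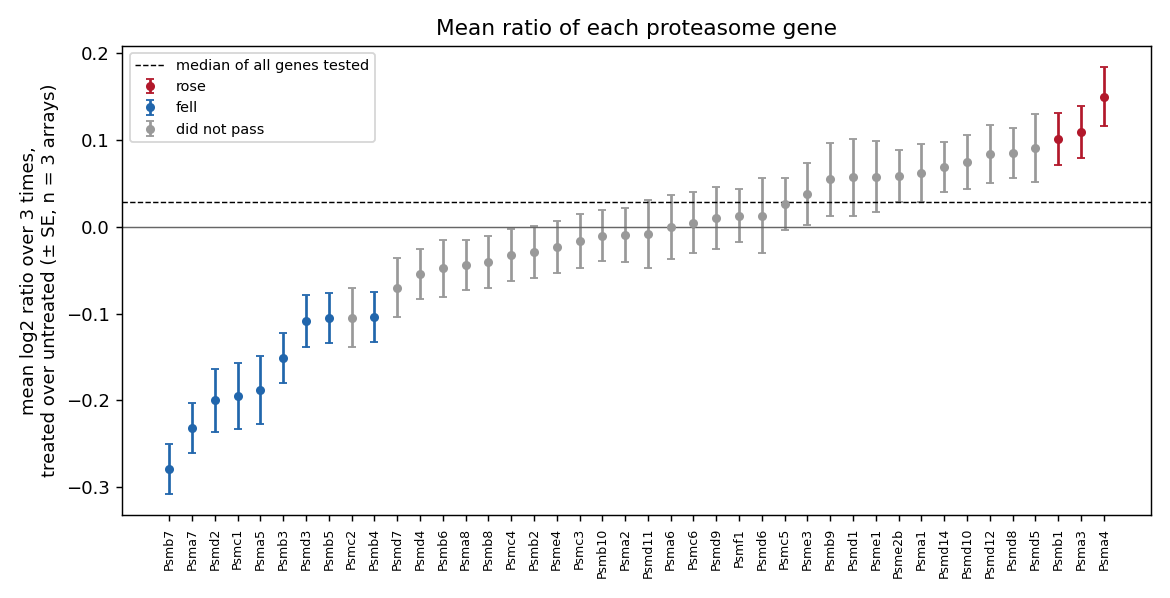
Mean log2 ratio over the 3 times, DB818-treated over untreated, for the 42 proteasome genes measured on all arrays (points, with bars for the standard error from limma, n = 3 arrays). Red genes rose and blue genes fell with loess at an adjusted p of 0.05, grey genes did not pass, and the dashed line is the median of all genes tested (0.029); the means run from -0.28 for Psmb7 to 0.15 for Psma4.

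Means near 0.1 are close to the technical error between probes of 1 gene, and the larger means exceed its SD. Of the 12 called genes 9, Psmb7 and Psma7 among them, rest on 1 probe (all but Psmb3, Psmd2 and Psma4). Repeated spots of 1 probe scattered by 0.044, 0.034 and 0.051 (SD of the log2 ratio) on the 6, 12 and 24 h arrays. Different probes of 1 proteasome gene scattered by 0.11, 0.090 and 0.13 at 6, 12 and 24 h, over 15, 15 and 16 genes with at least 2 usable probes. A mean of about 0.1 from a single probe, such as those of Psmb4, Psmb5, Psmd3, Psma3 and Psmb1, is therefore no larger than the difference 2 probes of a gene often showed. Proteasome genes are also bright: the median gene stood at percentile 88.6 of brightness among all genes tested. Among the 2187 genes above percentile 80, called bright genes below, 14.5% fell and 18.8% rose, and 29.7% were below 0 on all 3 arrays. Their median ratio was 0.008, 0.009 and 0.005 at 6, 12 and 24 h.

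The number of calls depended on which arrays and which signals were used, as it did over all genes. With the 12 h array left out, limma called 3 proteasome genes as fallen (Psmb7, Psma7 and Psmd2) and 0 as risen (7 and 1 at an unadjusted p of 0.05). Of all genes 1.3% then fell and 3.8% rose. With the 24 h array left out it called 6 and 1 (5.3% and 13.8% of all genes). With the 6 h array left out it called 9 and 2 (8.7% and 20.7% of all genes). When the scanner's own processed signals were used, 2 fell (Psmb7 and Psma7) and 0 rose (8 and 2 at an unadjusted p of 0.05). Of all genes 5.9% fell and 5.4% rose with these signals. The other 10 proteasome calls ended there, and 9 of these 10 ended also on omitting the 12 h array, Psmd2 being the exception.

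The beta subunits of the core were the group with the most calls in 1 direction. Of 7 constitutive beta genes 4 fell, 1 rose and 2 did not pass with loess, where 7.86% of all genes and 14.5% of the bright genes fell, and with median centring the sign of 3 of the 4, all but Psmb7, turned. Their median mean was -0.10, beside 0.029 for all genes. Ratios were below 0 on all 3 arrays for 5 of the 7 (21.0% of all genes and 29.7% of the bright ones) and above 0 on all 3 for 1.

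Psmb7, the trypsin-like subunit, had the lowest mean ratio of the proteasome. Its log2 signals were 9.66, 9.77 and 9.47 in treated cells at 6, 12 and 24 h, against 9.95, 10.04 and 9.75 in untreated cells. The treated signal was the lower one on each array, by nearly the same amount (-0.29, -0.27 and -0.27), and the mean was -0.28 ± 0.03 (SE, n = 3 arrays, limma adjusted p = 0.0040), which is 1.21-fold lower. Its mean ranked 106 from the lowest among the 10957 genes. The processed signals gave a mean of -0.33. Median centring instead of loess gave -0.025, where the call ended.

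Psmb3, a structural beta subunit, had log2 signals of 11.99, 12.12 and 11.87 in treated cells, against 12.14, 12.29 and 12.01 in untreated cells at 6, 12 and 24 h. It fell (mean -0.15 ± 0.03, SE, n = 3 arrays, limma adjusted p = 0.013). Both of its probes were below 0 at each time, between -0.18 and -0.12. Psmb5, the chymotrypsin-like subunit against which most proteasome inhibitors are directed, had log2 signals of 11.32, 11.32 and 11.14 in treated cells, against 11.42, 11.43 and 11.25 in untreated cells. Its ratio was alike at each time (-0.10, -0.10 and -0.11), so that Psmb5 fell by a small amount (mean -0.11 ± 0.03, SE, n = 3 arrays, limma adjusted p = 0.035). Psmb4, another structural subunit, fell as little (ratios of -0.09, -0.11 and -0.11).

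Psmb6, the caspase-like subunit, did not pass. Its log2 signals were 11.80, 11.73 and 11.67 in treated cells, against 11.80, 11.77 and 11.77 in untreated cells, which gave ratios of 0.00, -0.04 and -0.10. Psmb2 lay between -0.04 and 0.00 at each time and did not pass. Psmb1, a structural subunit, was the member that rose (0.07, 0.10 and 0.13, mean 0.10 ± 0.03, SE, n = 3 arrays, limma adjusted p = 0.045). Its log2 signals were 11.14, 11.24 and 11.10 in treated cells, against 11.07, 11.14 and 10.97 in untreated cells. That call ended in 8 of 12 alternative settings, among them the processed signals (mean 0.092).

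Of 8 alpha genes, which form the outer rings and the gate of the core, 2 fell, 2 rose and 4 did not pass with loess (7.86% of all genes fell and 20% rose), and with median centring the means of both that fell, Psma7 (0.24) and Psma5 (0.35), were above 0. Psma7 had log2 signals of 12.42, 12.63 and 12.51 in treated cells, against 12.67, 12.85 and 12.74 in untreated cells at 6, 12 and 24 h. It was lower on each array by a similar amount (-0.26, -0.22 and -0.22), and it fell (mean -0.23 ± 0.03, SE, n = 3 arrays, limma adjusted p = 0.0050). With median centring the mean was above 0 and passed too (limma adjusted p = 0.00083). A second probe, described as part of Psma7 but outside the naming rule, had ratios of 0.00, 0.06 and -0.03. Psma5 had log2 signals of 13.54, 13.45 and 13.29 in treated cells, against 13.65, 13.63 and 13.56 in untreated cells. Its ratio was lower at each later time (-0.10, -0.19 and -0.27), and it fell (mean -0.19 ± 0.04, SE, n = 3 arrays, limma adjusted p = 0.016). The processed signals gave Psma5 a mean of -0.15, which did not pass.

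Psma4, which rose, had log2 signals of 9.56, 9.53 and 9.21 in treated cells, against 9.35, 9.38 and 9.12 in untreated cells. Its ratio was smaller at each later time (0.21, 0.15 and 0.09), with a mean of 0.15 ± 0.03 (SE, n = 3 arrays, limma adjusted p = 0.020), and its 2 probes gave 0.17 and 0.24 at 6 h but 0.02 and 0.17 at 24 h. Psma3 had ratios of 0.14, 0.11 and 0.08 and rose too (mean 0.11 ± 0.03, SE, n = 3 arrays, limma adjusted p = 0.037). The processed signals gave 0.14 for Psma4 and 0.11 for Psma3, neither of which passed, and the call of Psma3 ended on omission of any single array. Psma1, Psma2, Psma6 and the alpha form Psma8, known from testis, did not pass, with ratios between -0.07 and 0.12. The probe of Psma8 was well above background in both channels on all 3 arrays, with log2 signals of 8.05, 8.20 and 8.08 in treated cells, against 8.07, 8.24 and 8.15 in untreated cells.

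**Figure D2:**
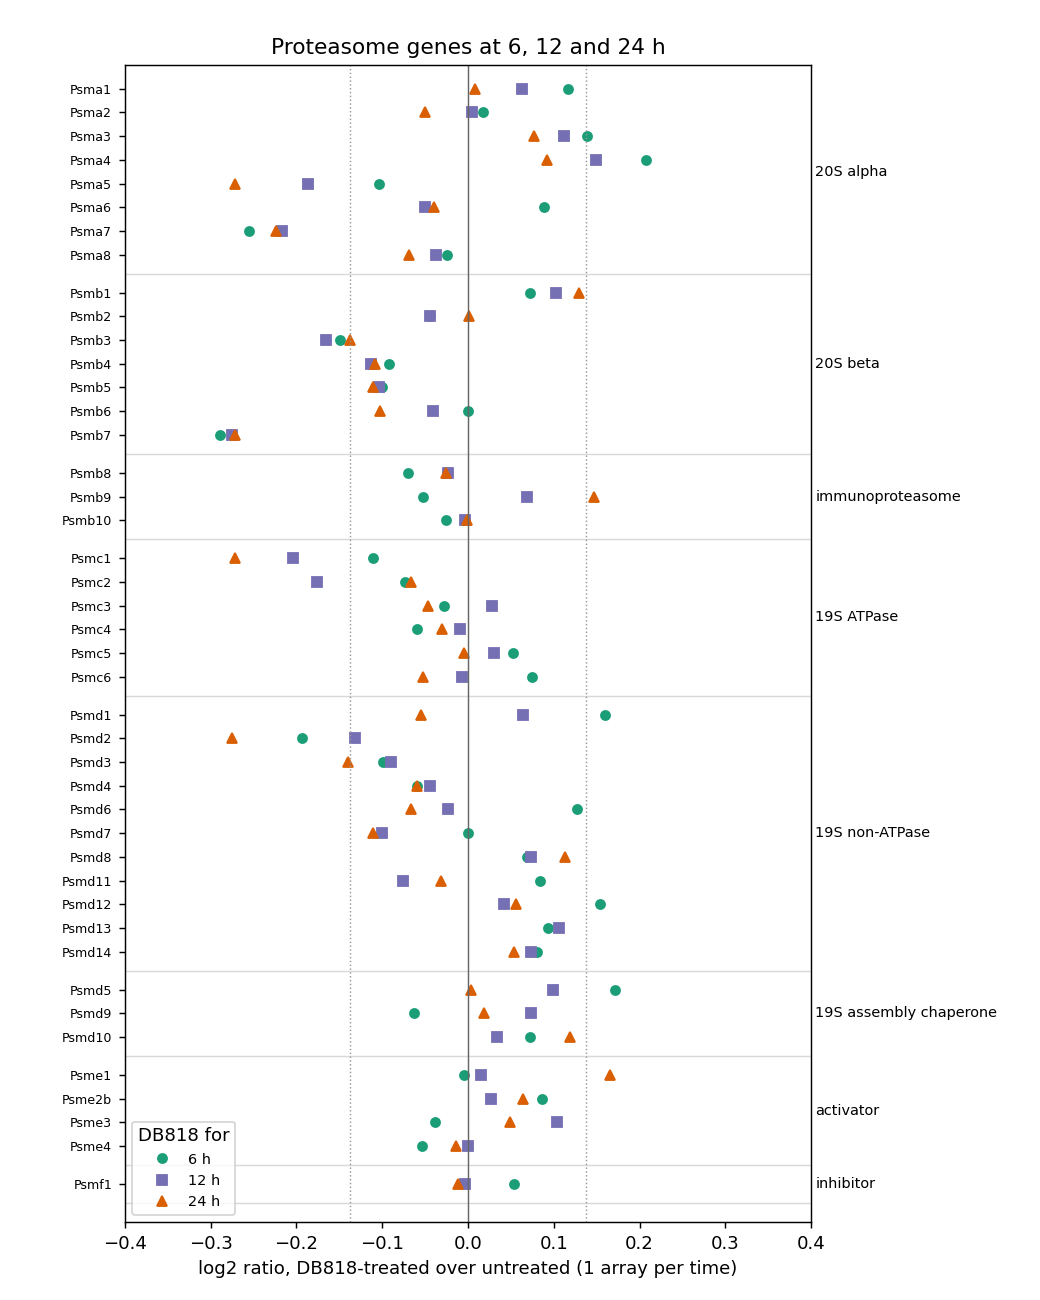
Log2 ratio of DB818-treated over untreated cells for each of the 43 proteasome genes, grouped by role, with 1 point per array (circles 6 h, squares 12 h, triangles 24 h). Dotted lines mark 1.1-fold; Psmb7 and Psma7 lie below them at all 3 times, and Psmb9 and Psme1 lie above them at 24 h alone.

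None of the 3 immunoproteasome genes passed in limma, and at an unadjusted p of 0.05 the count was also 0. Among all genes 27.9% passed in either direction, so a count of 0 in 3 genes does not set this group apart. Psmb8, which takes the place of Psmb5, had log2 signals of 12.01, 11.64 and 11.89 in treated cells, against 12.08, 11.66 and 11.92 in untreated cells (mean ratio -0.040 ± 0.030, SE, n = 3 arrays). Psmb10, which takes the place of Psmb7, had log2 signals of 12.51, 12.62 and 12.60 in treated cells, against 12.54, 12.62 and 12.60 in untreated cells, so its ratio stayed between -0.03 and 0.00. Psmb9, which takes the place of Psmb6, had log2 signals of 11.26, 11.52 and 11.53 in treated cells, against 11.31, 11.45 and 11.38 in untreated cells.

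The ratio of Psmb9 was thus -0.05 at 6 h, 0.07 at 12 h and 0.15 at 24 h, and its mean did not pass (0.055 ± 0.042, SE, n = 3 arrays, limma adjusted p = 0.36). At 24 h it was 1.11-fold higher, one of 2 proteasome genes at least 1.1-fold higher at that time (19.5% of all genes). The processed signals gave ratios of -0.06, 0.07 and 0.15. With median centring they were 0.35, 0.41 and 0.55, while the median of the bright genes was then 0.37, 0.32 and 0.37.

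The other gene at least 1.1-fold higher at 24 h was Psme1, the alpha chain of the activator PA28. Psme1 had log2 signals of 11.49, 11.67 and 11.67 in treated cells, against 11.50, 11.65 and 11.50 in untreated cells, so the channels differed at 24 h (ratio 0.17) and not at 6 or 12 h (0.00 and 0.01). Its mean did not pass (0.058 ± 0.041, SE, n = 3 arrays, limma adjusted p = 0.31). The beta chain was represented by 2 probes for which RefSeq now gives Psme2b, a near copy of Psme2, so that Psme2 and Psme2b cannot be told apart. Psme2b had ratios of 0.09, 0.03 and 0.06 and did not pass. Psme3, the nuclear activator, had ratios of -0.04, 0.10 and 0.05. Psme4, the activator PA200, had ratios of -0.05, 0.00 and -0.01, and neither passed. The brightest probe of Psme4 alone gave a mean of -0.17, which passed (limma adjusted p = 0.016), and its probes disagreed in sign.

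The ring of 6 ATPases in the 19S particle had 1 gene that fell and 5 that did not pass (7.86% of all genes and 14.5% of the bright genes fell). Psmc1 had log2 signals of 11.61, 11.68 and 11.43 in treated cells, against 11.72, 11.88 and 11.70 in untreated cells. Its ratio was lower at each later time (-0.11, -0.20 and -0.27), and it fell (mean -0.20 ± 0.04, SE, n = 3 arrays, limma adjusted p = 0.013). The processed signals gave the same mean, which did not pass. Psmc2 had ratios of -0.07, -0.18 and -0.07 and did not pass (limma adjusted p = 0.061). Its value at 24 h averages a bright probe (-0.19) with a dim one (0.05) that was above background in both channels only then. From the bright probe alone the mean was -0.14 and passed (limma adjusted p = 0.025). Psmc4 had ratios of -0.06, -0.01 and -0.03, and Psmc3, Psmc5 and Psmc6 lay between -0.06 and 0.08 at each time.

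Of the 10 non-ATPase 19S subunits measured at every time 2 fell and 8 did not pass (7.86% of all genes and 14.5% of the bright genes fell). Psmd2, the largest scaffold of the 19S base along with Psmd1, had log2 signals of 10.11, 10.20 and 9.96 in treated cells, against 10.30, 10.34 and 10.23 in untreated cells. It was lower on each array (-0.19, -0.13 and -0.28) and fell (mean -0.20 ± 0.04, SE, n = 3 arrays, limma adjusted p = 0.011). Its brighter probe gave -0.12, -0.15 and -0.17 and its dimmer one -0.27, -0.11 and -0.38. The processed signals gave a mean of -0.24, and letting in a further, dim probe brought the mean to -0.11, and neither passed. Psmd3, a subunit of the 19S lid, fell as well (mean -0.11 ± 0.03, SE, n = 3 arrays, limma adjusted p = 0.035). Its log2 signals were 13.43, 13.48 and 13.38 in treated cells, against 13.53, 13.57 and 13.52 in untreated cells.

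Psmd1, the other scaffold, had log2 signals of 9.91, 9.89 and 9.51 in treated cells, against 9.75, 9.83 and 9.57 in untreated cells. Its ratio was 0.16 at 6 h, 0.06 at 12 h and -0.05 at 24 h, and the mean did not pass (limma adjusted p = 0.36). Psmd14, the deubiquitinase of the lid (0.08, 0.07 and 0.05), and Psmd4, a ubiquitin receptor (-0.06, -0.04 and -0.06), did not pass. Psmd8 (0.07, 0.07 and 0.11) did not pass, nor did Psmd6, Psmd7, Psmd11 and Psmd12, with ratios between -0.11 and 0.15. Psmd13 had ratios of 0.09 and 0.11 at 6 and 12 h, and at 24 h its only spot was marked as an outlier by the scanner. The chaperones of 19S assembly did not pass either: Psmd5 had ratios of 0.17, 0.10 and 0.00, Psmd9 of -0.06, 0.07 and 0.02, and Psmd10 (gankyrin) of 0.07, 0.03 and 0.12. Psmf1, an inhibitor of the core also known as PI31, had ratios of 0.05, 0.00 and -0.01.

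At single times the counts past 1.1-fold were small. At 6 h 5 proteasome genes were higher by 1.1-fold or more and 4 were lower (17.6% and 7.22% of all genes). At 12 h 1 was higher and 6 were lower (15.8% and 6.71% of all genes). At 24 h 2 were higher and 6 lower (19.5% and 9.07% of all genes). Among the 2187 bright genes 339, 314 and 377 were higher and 272, 241 and 329 lower at 6, 12 and 24 h. Psmb7 and Psma7 were among the lower proteasome genes at every time. The spread among the proteasome genes was 0.11, 0.10 and 0.11 (SD of the log2 ratio) at 6, 12 and 24 h, beside 0.13, 0.12 and 0.15 among all genes.

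**Figure D3:**
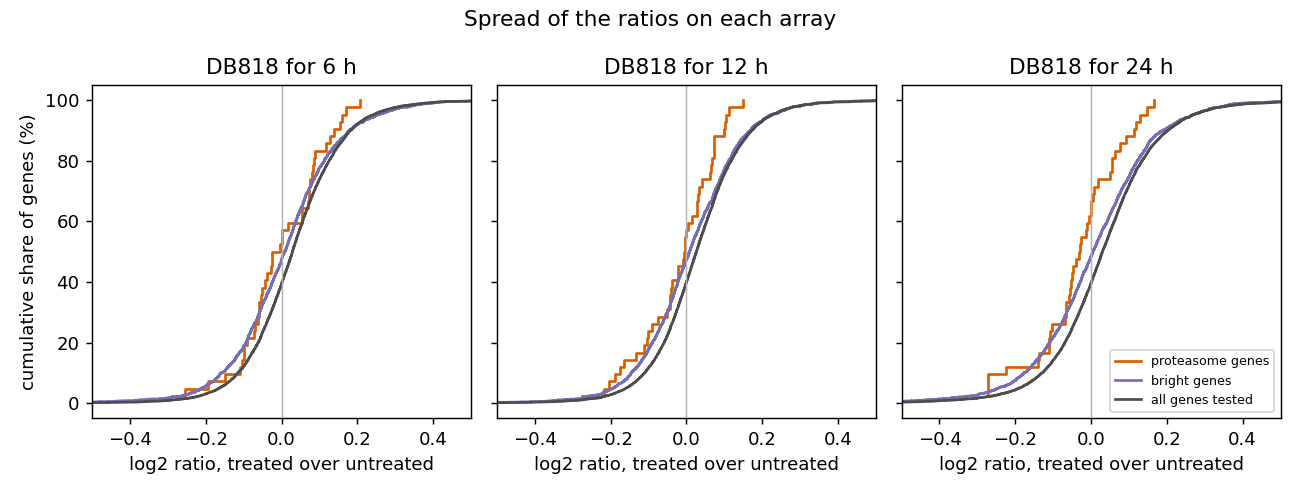
Cumulative share of genes (%) by log2 ratio, treated over untreated, at 6, 12 and 24 h, for the 42 proteasome genes (orange), the bright genes above percentile 80 (violet) and all 10957 genes tested (dark grey). Each curve crosses its group's median at 50%: -0.015, -0.006 and -0.031 for the proteasome genes against 0.029, 0.027 and 0.030 for all genes.

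A dye bias that is constant over the arrays cancels in the difference of the ratios between 24 and 6 h, for which there is no test. The median difference was -0.024 for the 42 genes, beside 0.000 for all genes, and it was below 0 for 25 of them (50.1% of all genes). By role, it was below 0 for 7 of 8 alpha genes (median -0.088), for 12 of 16 subunits of the 19S particle (median -0.069) and for 3 of 7 constitutive beta genes (median 0.012). It was above 0 for 3 of 3 immunoproteasome genes (0.03 for Psmb10, 0.04 for Psmb8 and 0.20 for Psmb9) and for 3 of 4 activators. The differences of Psmb10 and Psmb8 were within the scatter of repeated spots of 1 probe on the 24 h array (SD 0.051). The ratio was smaller at 24 h by 1.1-fold or more for 5 genes (11.7% of all genes), namely Psmd1 (-0.22), Psmd6 (-0.19), Psma5 (-0.17), Psmd5 (-0.17) and Psmc1 (-0.16). It was larger by as much for 2 (12.2% of all genes), Psmb9 (0.20) and Psme1 (0.17). They make 11.9% and 4.76% of the 42. The arrays share the dye orientation and possibly the untreated RNA.

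Of 16 proteasome genes with at least 2 usable probes, 6 had probes of opposite sign that lay more than 0.2 apart at some time: Psmc2, Psmc5, Psmd7, Psmd12, Psme4 and Psmf1. Psmd12, a lid subunit, had 3 probes whose ratios ran from -0.01 to 0.32 at 6 h, from -0.09 to 0.21 at 12 h and from -0.12 to 0.16 at 24 h, with the brightest probe the lowest each time. The 2 usable probes of Psmf1 gave -0.21 and 0.19 at 24 h. For these 6 genes the mean of the probes hides a disagreement as large as any ratio in the family except those of Psmb7, Psma7, Psma5, Psmc1 and Psmd2.

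The sign of the mean turned with the scaling for 21 of the 42 genes. Without loess, with each array centred on the median of its measured probes, the median ratio of the proteasome genes was 0.34, 0.27 and 0.27 at 6, 12 and 24 h, that of the bright genes 0.37, 0.32 and 0.37, and that of all genes -0.015, -0.010 and -0.009. In that setting ratios depended on brightness, and 32 proteasome genes rose and 3 fell (37.9% and 40.9% of all genes). Of the 9 genes that fell with loess 8 turned positive and Psmb7 did not. Relative to the bright genes, the proteasome median was lower at 6, 12 and 24 h with loess and with the processed signals (-0.030, -0.042 and -0.035, against -0.001, 0.002 and -0.001). It was lower with median centring too. These groups are not matched for brightness, since the proteasome genes reach down to percentile 28.5. With median centring the lower proteasome median therefore cannot be told apart from the dependence on brightness.

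**Figure D4:**
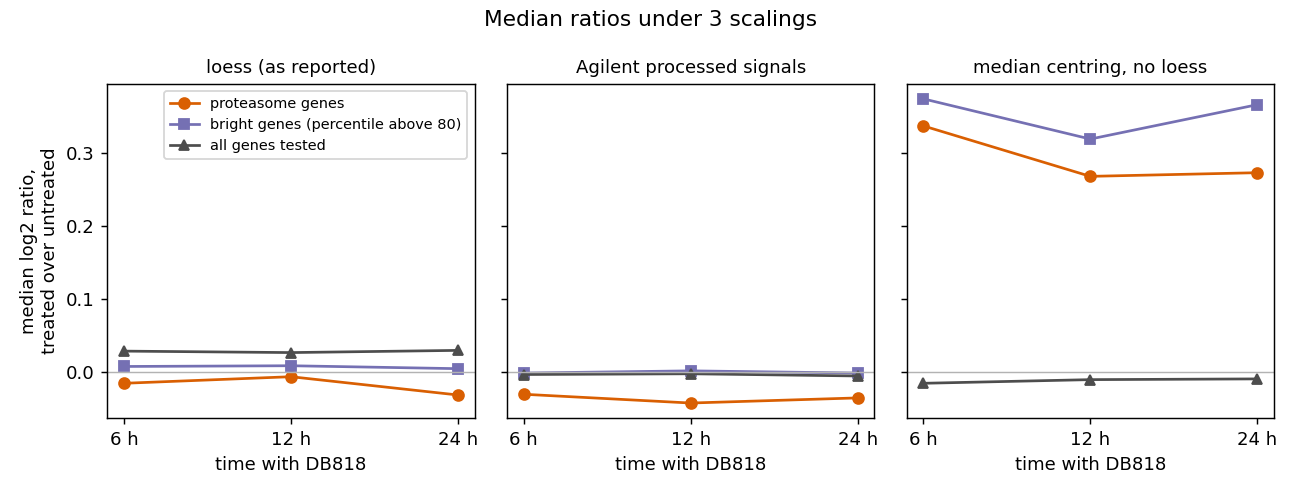
Median log2 ratio, treated over untreated, at 6, 12 and 24 h for the 42 proteasome genes (circles), the bright genes above percentile 80 (squares) and all genes tested (triangles), under loess, Agilent's processed signals and median centring without loess. The proteasome median lies below that of the bright genes in each panel, and both lie near 0.3 without loess. The groups are not matched for brightness, on which the ratios without loess depend.

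Genes that work with the proteasome were taken from lists written from general knowledge. Of 17 measured proteasome-associated and maturation factors 6 rose, 2 fell and 9 did not pass (20% of all genes rose and 7.86% fell), with a median mean of 0.073 beside 0.029 for all genes. Those that fell were Sem1 (-0.18), the smallest 19S subunit, and Pomp (-0.11), the chaperone that completes the 20S core. Among those that rose were Ubqln2 (0.18), which shuttles ubiquitinated proteins to the proteasome, Txnl1 (0.16), a thioredoxin bound to the 19S particle, and Usp14 (0.14), a deubiquitinase of the 19S particle.

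Of 14 measured genes of the Nfe2l1 route 4 rose, 0 fell and 10 did not pass by limma (5 rose and 2 fell at an unadjusted p of 0.05). The 4 are near the 20% of all genes that rose. Nfe2l1 itself did not pass (0.06, -0.07 and 0.00, limma adjusted p = 0.91), nor did Nfe2l2 (mean 0.051). Those that rose were Keap1 (0.20), which holds Nfe2l2 in check, Mafk (0.19), a small Maf partner, Sel1l (0.18), a part of the degradation complex of the endoplasmic reticulum, and Ddi2 (0.12), the protease that activates Nfe2l1. Of 14 measured genes of ubiquitin and its conjugation 3 rose, 2 fell and 9 did not pass (20% of all genes rose and 7.86% fell). Among those that fell was the polyubiquitin gene Ubb (-0.12). Rps27a (0.15), which encodes ubiquitin fused to a ribosomal protein, rose, and Uba3 (0.23), an activating enzyme of Nedd8, and the conjugating enzyme Cdc34 (0.13) rose too.

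Of 13 measured genes of antigen processing and interferon regulation 0 rose, 1 fell and 12 did not pass by limma (1 and 2 at an unadjusted p of 0.05; 20% of all genes rose and 7.86% fell). Tap1, a peptide transporter next to Psmb8 and Psmb9 on chromosome 17, fell (-0.23, -0.14 and -0.07, mean -0.15). Irf1, a transcription factor of the interferon response, had a mean of 0.022 and did not pass, and neither did B2m (0.002), the light chain of MHC class I.

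The cells carried the markers of their label. The myeloid progenitor list includes Hoxa9, the gene that transformed the line, so its signal is no support for the label. Of 12 myeloid progenitor markers 11 were measured on all arrays, and the 12th, Ctsg, had untreated log2 signals of 15.94, 16.00 and 16.05. Of the 11, 5 fell and 4 rose (7.86% of all genes fell and 20% rose). Mpo was at -0.32, -0.52 and -1.18 and Kit at 0.31, 0.35 and 0.31. Markers of T cells (5), B cells (5), erythroid cells (4 on the array) and epithelial or stromal cells (5) were measured in both channels on all arrays for 0 genes, with untreated log2 signals between 5.78 and 6.35. The part of these marker changes in the proteasome ratios was not tested.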

How the data were processed

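RNA of DB818-treated (Cy5) and untreated (Cy3) MigA9 cells was compared on 3 two-colour Agilent mouse arrays, 1 each at 6, 12 and 24 h, per the labels. The authors extracted the scans with Agilent Feature Extraction 9.1.3.1, per the submitters' processing notes and the file headers, and deposited foreground and background intensity for each spot and channel. The deposited series values are the log10 ratio of treated to untreated signal that the scanner software wrote (largest difference 0). Here, limma 3.58.1 (R 4.3.3, data.table version 1.17.8) applied normexp with offset 50 to mean foreground and median background, and then loess per array, with control spots at weight 0. Spots marked as outliers (37, 36 and 52 at 6, 12 and 24 h) and saturated spots were left out. A gene's value is the mean of its probes well above background in both channels, which 40.7, 40.8 and 41.2% of probes were. Probes were named by RefSeq accession (22864), symbol (6732) or synonym (3498), and 8080 kept the file's name. The mean over the 3 times was tested with limma (an intercept alone, 2 residual degrees of freedom before eBayes, Benjamini-Hochberg over 10957 genes at 0.05). The limma fit was tested on simulated ratios with planted changes of 1.25-fold or more, larger than any proteasome mean with loess at offset 50. Recovery of smaller changes was not tested. The normalisation was tested on real spots of 1 array whose Cy5 signal was raised by a known factor. Log2 signals are those of the normalised channels of 1 array and are not scaled between arrays or comparable between genes. The number of arrays limits the precision.

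Genes given with values on each array were the catalytic, immunoproteasome and activator genes, Psmf1, and in each other role the 3 members with the largest absolute mean ratios. Psma3, Psma8, Psmb2, Psmd1, Psmd4, Psmd13 and Psmd14 were added after their values were seen. Of the other lists up to 4 genes were named by the same rule, and Pomp, Usp14, Ddi2, Ubb, Nfe2l1, Nfe2l2, Irf1, B2m, Mpo and Kit were added after their values were seen. Hoxa9 was named as the transforming gene. The members and lists were chosen with earlier results of these data known, and some list genes are not reported here. Promoter sequences and gene names came from RefSeq (GRCm38.p6). Alternatives covered background correction, scaling, dim probes let in, 1 probe per gene or each probe, array weights, the threshold, each array left out and, chosen after seeing the data, outlier spots kept. Motifs and figures used Python 3.11.15 with pandas 2.3.3, numpy 2.4.6 and matplotlib 3.10.9.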

Additional observations from a re-analysis of the deposited data

Results flagged for a closer look

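The single probe of Psmd13, a subunit of the 19S lid, had a log2 ratio of 1.35 at 24 h in a spot that the scanner marked as an outlier and that no comparison used. The same probe gave 0.09 and 0.11 at 6 and 12 h, and the untreated log2 signal was 8.33, 8.44 and 8.45 at 6, 12 and 24 h, so the difference lies in the treated channel of 1 spot. With outlier spots kept, 43 proteasome genes were tested, 9 fell and 3 rose. Whether the signal comes from RNA was not tested.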

How the results depend on the processing

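Each ratio already pairs treated with untreated RNA on its own array. No paired analysis was possible across the times because each has 1 array and the labels give no replicate numbers. Leaving out 1 array in turn gave 0 to 2 proteasome genes that rose and 3 to 9 that fell, with the lowest counts without the 12 h array. With the scanner's processed signals 0 rose and 2 fell (5.4% and 5.9% of all genes). Normexp at offset 0 gave 0 that rose and 3 that fell (10.4% and 5.8% of all genes). At an adjusted p of 0.01, 0 rose and 2 fell (6.1% and 2.1% of all genes). Plain background subtraction gave 1 that rose and 6 that fell (20% and 6.6% of all genes). The brightest probe of each gene gave 1 that rose and 11 that fell (21% and 9.3% of all genes). Array weights gave 9 that rose and 11 that fell (38.2% and 19.4% of all genes). Taking each probe on its own, 5 of 60 probes rose and 14 fell (20.9% and 7.8% of all probes tested). The median ratio at 12 h was -0.042 with the processed signals. With median centring in place of loess 32 genes rose and 3 fell, and the medians were 0.337, 0.268 and 0.273 at 6, 12 and 24 h. The sign of these means turned there: Psma2 (0.54), Psma5 (0.35), Psma6 (0.42), Psma7 (0.24), Psma8 (0.001), Psmb2 (0.12), Psmb3 (0.28), Psmb4 (0.36), Psmb5 (0.27), Psmb6 (0.36), Psmb8 (0.38), Psmb10 (0.46), Psmc1 (0.21), Psmc2 (0.086), Psmc3 (0.25), Psmc4 (0.27), Psmd2 (0.086), Psmd3 (0.43), Psmd9 (-0.051), Psmd11 (0.41) and Psmf1 (-0.28). That alternative leaves ratios that depend on brightness, as the median of 0.37, 0.32 and 0.37 of the bright genes shows. The counts over all genes moved too: 2196 rose and 861 fell with loess, 419 and 147 with the 12 h array omitted, 593 and 643 with the processed signals, and 4153 and 4477 with median centring. The offset of 50 draws the ratios of dim genes toward 0. Means of brighter genes moved as well, in either direction. At offset 0 Psmb7 was at -0.338 (-0.279 at offset 50), Psmd2 at -0.245 (-0.2) and Psma5 at -0.115 (-0.188). The cause of the other changes was not tested.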

Other observations

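Probes outside the naming rule whose description speaks of a proteasome gave values for 3 further transcripts on all arrays. One is the tag described as part of Psma7, given above. A predicted gene similar to the beta 3 subunit had log2 ratios of -0.13, -0.14 and 0.00 at 6, 12 and 24 h, and a spleen clone described as Psma3 had 0.01, 0.05 and 0.08. Psmc3ip, which shares the naming pattern, had ratios of 0.15, 0.04 and -0.01 and did not pass (mean 0.059 ± 0.038, SE, n = 3 arrays, limma adjusted p = 0.27).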
